A study of Mus musculus with 24 samples.

Results

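Bc1, Lars2, Gm42418 and AY036118 are 4 of the 55471 genes counted in the hypothalamus of overfed and control mice. They were selected on the contrast of overfed against control mice 3 days after overfeeding ended (d14+3), in which Bc1 and features that carry ribosomal RNA reads were lower in the overfed mice. Of the 4, Bc1 and Lars2 held counts in all 24 libraries, whereas Gm42418 and AY036118 were listed at 0 in every library, so the word "lower" does not hold for the latter pair in these counts. CT010467.1, annotated as ribosomal RNA, and Gm26917, a long noncoding RNA next to it, were therefore followed as the features of the same locus that do hold counts. Both were added after the counts were seen.

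The mice were chow-fed male C57BL6/J animals, 18 weeks old, that carried an intragastric infusion line. Experimentally overfed mice (ExpOF) received a sucrose-enriched liquid diet by infusion, and control mice received sterile water at the same flow. Groups of 6 mice per diet were killed on day 14 (d14), at the end of overfeeding, or on day 17 (d14+3), after 3 days in which all mice received sterile water. Each group held 3 mice of a July and 3 of a September cohort, and RNA was extracted in 2 rounds of 3 mice per group. Each library came from the whole hypothalamus of 1 mouse, and in bulk tissue fewer cells of a type and less RNA per cell cannot be told apart.

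Bc1 is a short noncoding RNA of rodent neurons that RNA polymerase III transcribes from a promoter inside the gene. It travels into dendrites, where it is known to hold back the start of translation through an A-rich region that binds poly(A)-binding protein and eIF4A. Lars2 encodes the mitochondrial leucyl-tRNA synthetase, which charges mitochondrial tRNA with leucine. Gm42418 and AY036118 are gene models that lie in the sequence of ribosomal RNA on chromosome 17, so their counts are usually read as a gauge of ribosomal RNA carried into a library.

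The whole Bc1 transcript in the GENCODE vM21 annotation is 168 bases long and forms 1 exon at chr7:144914470-144914637 on the plus strand (mm10), where no other gene overlaps it. It is shown because it holds both internal promoter boxes and the A-rich region. The capitals mark the A box (bases 14 to 24), the B box (bases 57 to 66) and the longest run of A (bases 77 to 99).
Bc1: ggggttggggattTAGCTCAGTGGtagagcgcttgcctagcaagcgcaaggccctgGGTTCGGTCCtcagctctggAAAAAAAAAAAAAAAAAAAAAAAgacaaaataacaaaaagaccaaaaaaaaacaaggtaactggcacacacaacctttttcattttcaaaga
Of the 18970 tested genes that have a transcript sequence, 335 (1.77%), Bc1 among them, held a run of at least 23 A. The longest run was 11 A in Lars2, 6 A in CT010467.1 and 4 A in Gm26917. Both boxes were searched on both strands with the letters of Bc1 itself and N at the positions that vary among such promoters, the A box as TNGCNNAGTGG and the B box as GGTTCGNNCC. Among 32851 RefSeq promoter windows (GRCm38.p6) the A box letters were in 1.24% and the B box letters in 0.481%, and among the first 168 bases of 49113 transcripts they were in 0.918% and 0.163%. The promoter window of Bc1 itself (chr7:144914220-144914519) holds its A box but ends before its B box. The promoter share is therefore no background for a B box at that place in a gene. Of the 118 windows of 51 bases in Bc1, the length of a sequencing read, 36 (30.5%) also occur on the same strand in a transcript of Lrrc17 or Tatdn1. On the opposite strand, 27 (22.9%) occur in a transcript of Akap5, Elp6 or Gm26549.

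Gm42418 (chr17:39846958-39848788, plus strand) and AY036118 (chr17:39847113-39848035, minus strand) cover each other and CT010467.1 (chr17:39846353-39848827, minus strand). All 923 bases of AY036118 are the reverse complement of bases 156 to 1078 of Gm42418. The 40 bases of chr17:39847113-39847152 are printed from both models because they show that 1 stretch of genome carries 3 gene names, since the AY036118 strand is also the CT010467.1 strand.
Gm42418: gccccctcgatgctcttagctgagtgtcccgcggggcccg
AY036118: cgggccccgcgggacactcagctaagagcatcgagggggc
CT010467.1 shares 99.5% of the exon bases of Gm42418, on the opposite strand, and 100% of those of AY036118, on the same strand. Zero counts were common for such genes in this table. Of 439 genes that lie wholly within exons of genes on the opposite strand, 434 (98.9%) were at 0 in all libraries, and of 711 within exons on the same strand, 642 (90.3%). Among the 43424 genes that share no exon with another gene the share was 30.6%. A count of 0 allows up to 3 counts per library, which is 0.0861 to 0.336 CPM (counts scaled to a common library size with edgeR's TMM factors), and this limit covers counting error only. Over all libraries CT010467.1 summed to 459698 counts and Gm26917 (chr17:39843013-39846245, plus strand) to 12662 counts.

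Lars2 (chr9:123366927-123462664, plus strand) has no overlapping gene and 9 annotated transcripts. None of its 20-base words occurred in CT010467.1, Gm26917 or the mitochondrial ribosomal RNAs mt-Rnr1 and mt-Rnr2, on either strand. A stretch of 52 bases in its 3' untranslated region (chr9:123462048-123462099) was identical, on the same strand, to bases 179 to 230 of a 402-base transcript of Gm15564, a noncoding gene on chromosome 16 that stood in the list of features known to carry ribosomal RNA reads. The large-subunit ribosomal RNA itself was not analysed here. Of the 11220 windows of 51 bases in Lars2, 20 (0.178%) occur in another gene.

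The libraries held 8928182 to 34848437 counts (median 23142768.5). The study left 1 library, Control d14 replicate 4, out for poor RNA quality, although its RNA integrity number (RIN, at most 10) is 9.8 in the labels, and values below rest on the other 23 unless stated. All 16 markers of hypothalamic neurons fixed for the check (such as Pomc, Agrp, Avp and Hcrt) held counts and were tested. Their summed level was 977 to 1646 CPM (median 1141) in Control d14, 877 to 1150 CPM (median 976) in ExpOF d14, 741 to 1125 CPM (median 867) in Control d14+3 and 673 to 965 CPM (median 758) in ExpOF d14+3, lower in median in ExpOF mice on both days, and its part in the results was not tested. Transcripts of choroid plexus, the tissue that makes cerebrospinal fluid, summed to 3071 CPM in Control d14 replicate 5 and to 1305 CPM in ExpOF d14+3 replicate 4, against at most 73.9 CPM in any library of Control d14+3 and at most 42.8 CPM in any library of ExpOF d14. The summed neuron markers (9 genes) were 4405 to 4602 CPM in Control d14, 4565 to 4988 in ExpOF d14, 4696 to 5012 in Control d14+3 and 4722 to 5051 in ExpOF d14+3.

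On d14+3, the contrast that chose the members, Bc1 was at 104, 138, 225, 104, 171 and 59.6 CPM in control replicates 1 to 6. In ExpOF replicates 1 to 6 it was at 57.1, 55.3, 73.4, 57.3, 63.3 and 24.6 CPM. The ExpOF libraries were low and close together apart from replicate 6, the controls were spread widely, and 4 of 6 ExpOF libraries lay below every control, the overlap being with control replicate 6. ExpOF mice averaged 55.2 ± 16.4 CPM, against 133 ± 58.4 CPM for the controls of that day (SD over 6 mice each). The fitted difference was -1.27 on the log2 scale (SE 0.307), or 58.6% lower. No test is given, because this contrast was used to select the gene.

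Lars2 on d14+3 was at 341, 472, 353, 246, 231 and 231 CPM in control replicates 1 to 6. In ExpOF replicates 1 to 6 it was at 194, 186, 167, 219, 162 and 146 CPM. All 6 ExpOF libraries were below all 6 controls, and the controls fell into 3 high libraries (replicates 1 to 3) and 3 that were only just above the highest ExpOF library. ExpOF mice averaged 179 ± 26.0 CPM and controls 312 ± 95.5 CPM (SD over 6 mice each), which the fit put at -0.80 on the log2 scale (SE 0.172), or 42.7% lower.

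CT010467.1 on d14+3 was at 1153, 1106, 1136, 599, 636 and 525 CPM in the controls and at 509, 413, 377, 555, 411 and 465 CPM in ExpOF mice. It had the same 3 high control libraries as Lars2, and 5 of 6 ExpOF libraries were below every control (log2 fold change -0.92, SE 0.258). Gm26917 was at 26.1, 24.4, 34.7, 15.8, 13.9 and 9.52 CPM in the controls and at 13.5, 12.4, 11.3, 16.8, 14.9 and 17.3 CPM in ExpOF mice. All 6 ExpOF libraries lay within the range of the controls (log2 fold change -0.54, SE 0.267). For scale, every ExpOF library was below every control for 0.3% of the 18992 genes tested on d14+3, 4.2% were lower at an unadjusted p-value under 0.05, and 0% (0 genes) passed the adjusted threshold in edgeR, with 1350 genes at an unadjusted p-value under 0.05 and 40 genes called by DESeq2.

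**Figure D1:**
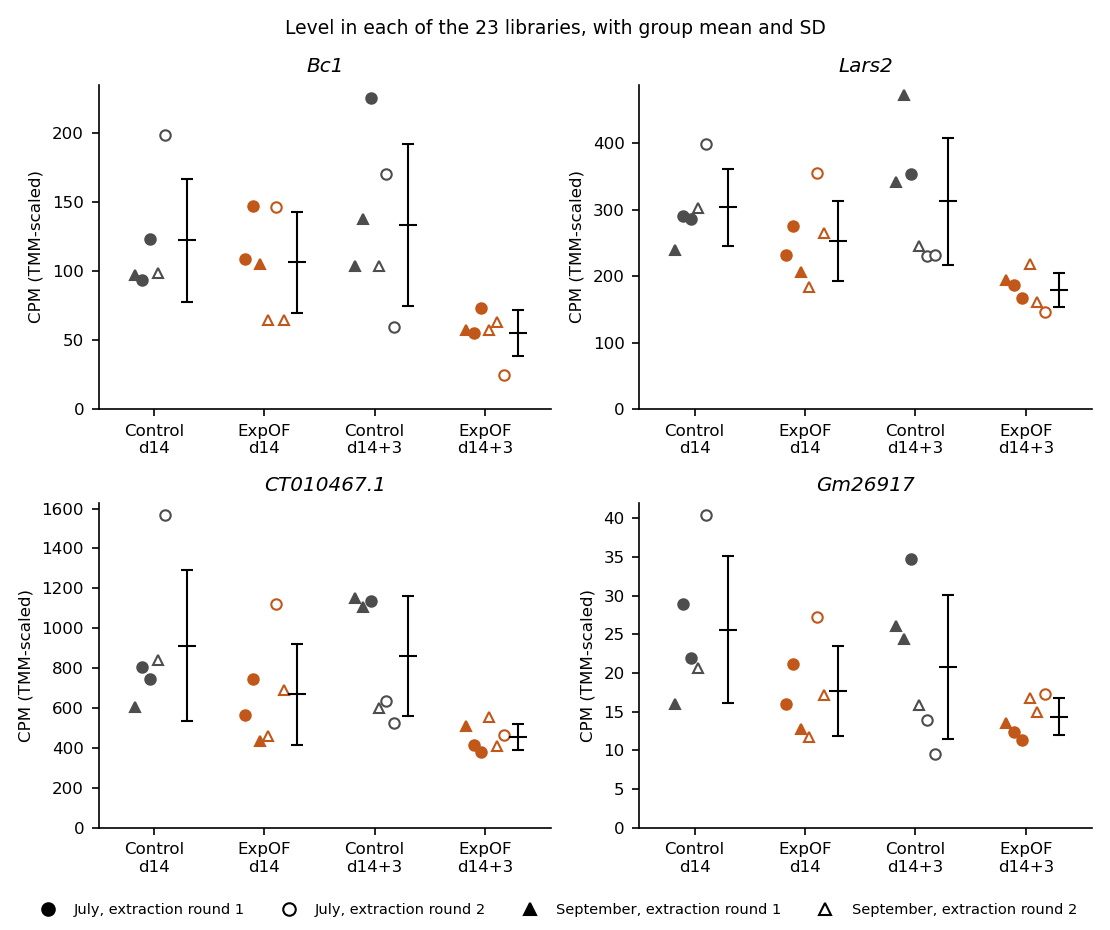
Level (CPM with TMM scaling, linear axis from 0) of Bc1, Lars2, CT010467.1 and Gm26917 in the 23 libraries of the 4 groups. Circles are July and triangles September mice, filled points extraction round 1 and open points round 2, and the black bar beside each group is the mean ± SD. Lars2 in ExpOF d14+3 ends at 219 CPM, below the lowest control of that day at 231 CPM, and the open control points of d14+3 sit low for Lars2, CT010467.1 and Gm26917.

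The 3 high controls of d14+3 were those of extraction round 1, with a RIN of 9.3 to 9.9, and the 3 low ones were those of round 2, with a RIN of 7.2 to 7.9. Within round 1, Lars2 was at 167 to 194 CPM in ExpOF and 341 to 472 CPM in controls, a log2 ratio of the means of -1.09. Within round 2 it was at 146 to 219 CPM against 231 to 246 CPM, a log2 ratio of -0.43, and the groups were again apart. CT010467.1 had a log2 ratio of -1.39 in round 1, where the groups were apart, and of -0.30 in round 2, where they overlapped. Gm26917 was lower in ExpOF mice in round 1 (-1.19) and higher in round 2 (0.32). Bc1 differed less by round, with -1.33 in round 1 and -1.20 in round 2. Its controls of round 2 ran from 59.6 to 171 CPM, against 24.6 to 63.3 CPM in ExpOF mice, and overlapped them in 1 library.

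RIN and round cannot be told apart in the controls of d14+3, and the part of either in these differences was not tested. By cohort, Bc1 had a log2 ratio of -1.57 in July and -0.96 in September, and Lars2 -0.71 and -0.88. With RIN as a covariate in the edgeR fit, the d14+3 log2 fold change was -1.36 for Bc1 and -0.98 for Lars2. Over the 26 other settings run for that contrast it stayed between -1.57 and -0.96 for Bc1 and between -0.98 and -0.65 for Lars2.

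**Figure D2:**
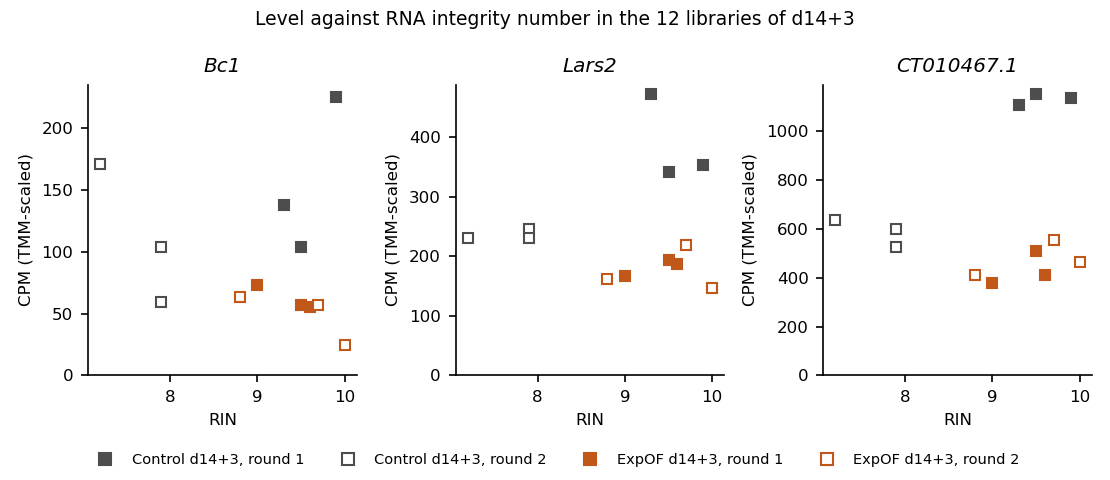
Level (CPM, linear axis from 0) of Bc1, Lars2 and CT010467.1 against the RIN of the library in the 12 libraries of d14+3. Grey squares are controls and orange squares ExpOF mice, filled for extraction round 1 and open for round 2. The open control squares lie at a RIN of 7.2 to 7.9, where no ExpOF library lies, and the filled control squares stand highest for Lars2 and CT010467.1.

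The d14 libraries were not used to choose the members, and there the diets could be tested. Bc1 was at 97.4, 93.4, 123, 98.6 and 199 CPM in Control d14 replicates 1, 2, 3, 5 and 6. In ExpOF d14 replicates 1 to 6 it was at 109, 147, 105, 64.6, 146 and 64.7 CPM. The groups overlapped, with the highest library in the controls and the 2 lowest in ExpOF mice. The log2 fold change was -0.21 (SE 0.315, 95% interval -0.87 to 0.45, adjusted p = 0.676 in edgeR's quasi-likelihood test, and p = 0.463 in a two-sided exact permutation test). The interval does not exclude a difference as low as -0.87.

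Lars2 on d14 was at 239.8, 290.3, 286, 302 and 398 CPM in the controls and at 232, 275, 207, 184, 355 and 265 CPM in ExpOF mice. Of the 6 ExpOF libraries 5 were below the median control, 3 were below every control, and replicate 5 was above 4 of the controls. The log2 fold change was -0.27 (SE 0.179, 95% interval -0.63 to 0.10, adjusted p = 0.327 in edgeR's test, and p = 0.173 in a two-sided exact permutation test). For CT010467.1 it was -0.45 (SE 0.268, adjusted p = 0.273, exact permutation p = 0.203) and for Gm26917 -0.57 (SE 0.277, adjusted p = 0.191, exact permutation p = 0.113).

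None of the 4 features passed the threshold on d14, where 1 of 18992 genes (0.00527%) did in edgeR, Npy, the appetite-stimulating neuropeptide Y (log2 fold change -1.10), and 178 in DESeq2. Npy is named because it was the only gene called, and without Control d14 replicate 1 the edgeR count was 4220, with none of the 4 features among them. At an unadjusted p-value under 0.05, 13.6% of all genes were lower in ExpOF mice, and none of the 4 features was among them, and 13.1% were higher. Every ExpOF library was below every control for 0.958% of genes, and again none of the 4 was among them. With RIN as a covariate the d14 log2 fold change was -0.27 for Bc1, -0.41 for Lars2, -0.65 for CT010467.1 and -0.80 for Gm26917. Their unadjusted p-values in edgeR were then 0.420, 0.0153, 0.00708 and 0.000557 (adjusted p = 0.588, 0.0943, 0.0818 and 0.0816). This fit held all 4 groups, so its RIN slope was also estimated from the libraries used to choose the members. Its d14 values are therefore not independent of that choice, and no conclusion is drawn from them. In that fit 6087 of 18992 genes had an unadjusted p-value under 0.05. Without this covariate, leaving out Control d14 replicate 6, which held the highest Bc1 level of the group, turned the Bc1 log2 fold change to 0.03. Including the library the study left out moved it to -2.09 and that of Lars2 to -0.97, and the adjusted p-values of these fits were 0.0633 and 0.0652.

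That left-out library stood far from the others in the 4 features that hold counts. It held 20579 counts of Bc1, or 0.188% of its total, which is 2108 CPM and 10.6 times the highest other Control d14 library. Lars2 was at 1460 CPM, 3.67 times the highest of the other controls. CT010467.1 was at 5775 CPM and Gm26917 at 183 CPM, 3.68 and 4.54 times the highest. Gm42418 and AY036118 were at 0 in it as well.

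Ordered by mean level, both genes ran from Control d14+3 through Control d14 and ExpOF d14 to ExpOF d14+3. For Bc1 the means were 133, 122 ± 44.3 (SD, n = 5), 106 ± 36.8 (SD, n = 6) and 55.2 CPM, and for Lars2 312, 303 ± 58.1 (SD, n = 5), 253 ± 60.5 (SD, n = 6) and 179 CPM. The first 3 groups in either order lay within 1 SD of their neighbour, and the ranges of ExpOF d14 and ExpOF d14+3 overlapped for both genes. Per kilobase of exon, the level of Bc1 in Control d14 was 728 ± 264 CPM per kb (SD, n = 5), of CT010467.1 369.9 ± 153, of Lars2 27.4 ± 5.24 and of Gm26917 7.69 ± 2.85. The CT010467.1 value divides by all 2466 exon bases, of which 73.9% are shared with Gm42418 or AY036118. How many of those shared bases could receive counts was not tested, so these values do not settle the order of Bc1 and CT010467.1.

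**Figure D3:**
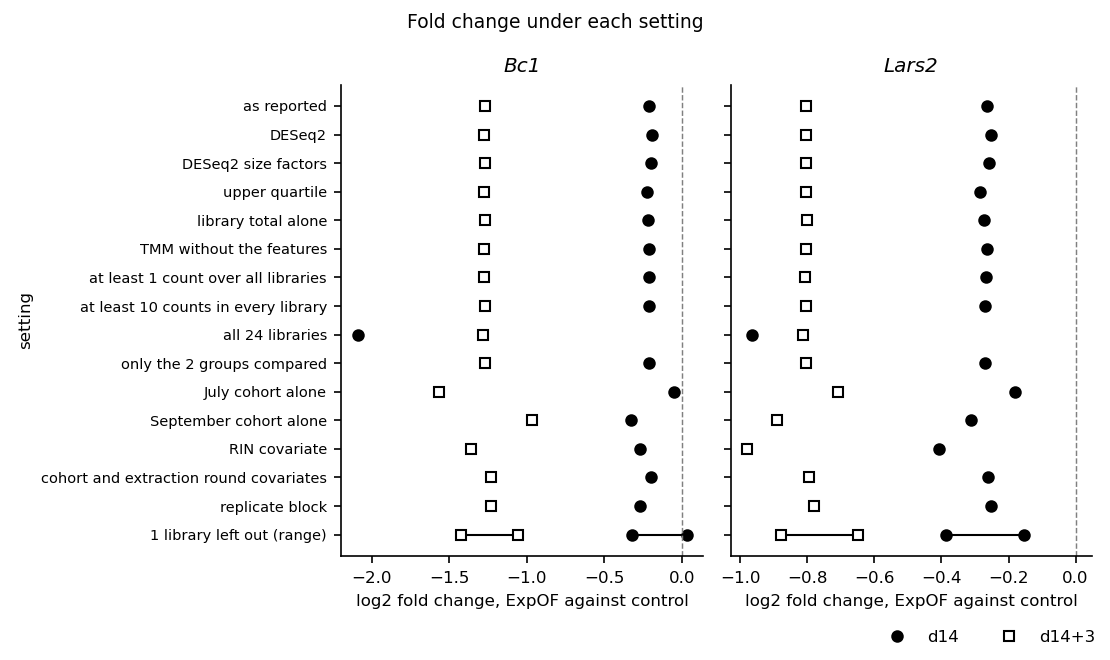
Log2 fold change of ExpOF against control mice for Bc1 and Lars2 under each setting of the analysis, filled circles for d14 and open squares for d14+3, with the dashed line at 0. The bottom row spans the lowest and highest value when 1 library is left out. The filled circles of Bc1 lie near 0 and reach 0.03 in the bottom row, and only the fit of all 24 libraries moves them to -2.09.

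The level of Lars2 followed that of CT010467.1 from library to library. Across the 11 libraries of d14 the Pearson correlation of their log2 CPM was 0.979 (permutation p adjusted over 6 pairs = 6e-05) and Spearman's was 0.982 (adjusted p = 6e-05). It was 0.994 without the 2 libraries farthest from the median Lars2 level (exact permutation test, adjusted p = 3.31e-05), 0.988 among the 6 July libraries (exact permutation test, adjusted p = 0.0167) and 0.974 for deviations from the group means (permutation test, adjusted p = 4e-05). No value is given for fewer than 6 libraries, and September held 5. Lars2 and Gm26917 correlated at 0.950 (adjusted p = 0.0001; Spearman 0.927, adjusted p = 0.00036), and CT010467.1 and Gm26917 at 0.953 (adjusted p = 6e-05; Spearman 0.909, adjusted p = 0.00062), both by permutation tests. In the 12 libraries of d14+3 the values, given as description, were 0.936 for Lars2 with CT010467.1 and 0.695 for Lars2 with Gm26917.

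For Bc1 the correlations were lower. Pearson's was 0.707 with Lars2, 0.695 with CT010467.1 and 0.708 with Gm26917 (permutation tests, adjusted p = 0.0178, 0.018 and 0.0178), and the Spearman values of 0.545, 0.518 and 0.545 did not pass (adjusted p = 0.106, 0.108 and 0.106). Without Control d14 replicate 6 and ExpOF d14 replicate 4, the 2 libraries farthest from the median Bc1 level, the 3 values were 0.318, 0.310 and 0.326 (exact permutation tests, adjusted p = 0.416 for each). By that measure the relation of Bc1 to the other features on d14 rests on those 2 libraries, although leaving them out also narrows the range of Bc1. For deviations from the group means the 3 values were 0.692, 0.678 and 0.704 (permutation tests, adjusted p = 0.0219 for each). With the left-out library included they were 0.957, 0.930 and 0.941 (permutation tests, adjusted p = 0.000864, 0.00087 and 0.000864). That library held 10.6 times the Bc1 level of the highest other Control d14 library. It was scaled with all 24 libraries, whereas the others were scaled with 23. In the 12 libraries of d14+3 the 3 values for Bc1 were, as description, 0.751, 0.705 and 0.524. In the 6 July libraries its correlation with Lars2 was 0.735 (exact permutation test, adjusted p = 0.105).

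**Figure D4:**
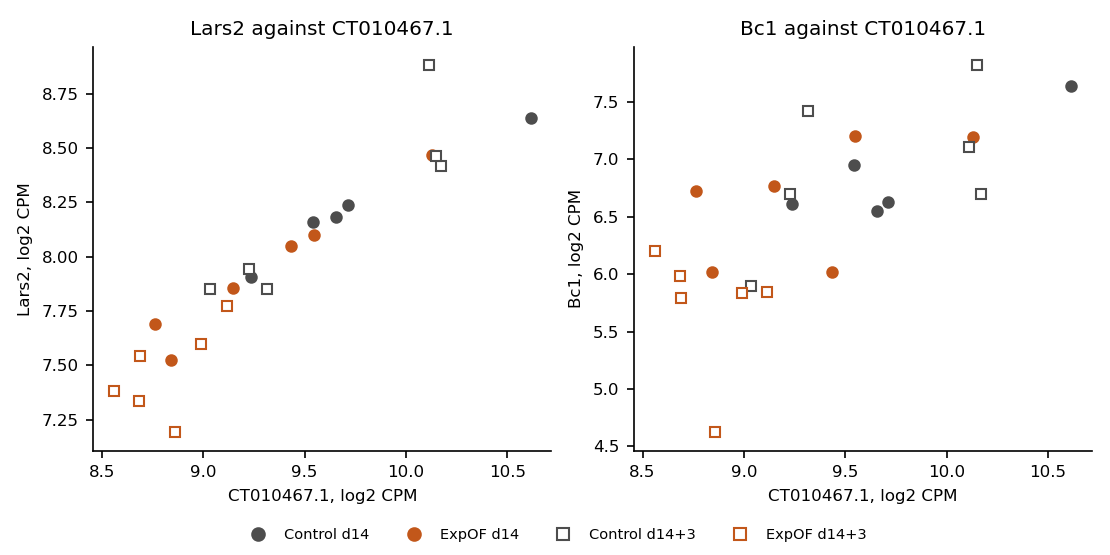
Log2 CPM of Lars2 (left) and Bc1 (right) against log2 CPM of CT010467.1 in 23 libraries, with filled circles for d14, open squares for d14+3, grey for control and orange for ExpOF mice. The d14 circles of Lars2 lie close to a line (Pearson 0.979 over 11 libraries), and those of Bc1 scatter more widely (0.695).

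The mitochondrial ribosomal RNAs gave lower values for both genes. On d14 the Pearson correlation of Lars2 was 0.371 with mt-Rnr1 and 0.172 with mt-Rnr2, and that of Bc1 was 0.340 and 0.160. With Gm15564, which shares the 52-base stretch with Lars2, the values were 0.506 for Lars2 and 0.459 for Bc1. None of these 6 relations, chosen after the data were seen, passed a permutation test (lowest adjusted p = 0.46; Spearman 0.036 to 0.464, lowest adjusted p = 0.814). Without the 2 farthest libraries Lars2 and Gm15564 correlated at 0.736 (exact permutation test, adjusted p = 0.143). In the libraries of d14+3 that pair correlated at 0.878.

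Among 14169 other genes with a mean of at least 50 counts, leaving out Bc1, Lars2, CT010467.1 and Gm26917 themselves, the gene whose d14 pattern was most like that of Bc1 was Rn7sk (Pearson 0.877 over 11 libraries), the 7SK RNA, another product of RNA polymerase III, which holds the elongation factor P-TEFb inactive. It was followed by 9930104L06Rik (0.846), Fzd5 (0.829), Dcst1 (0.806) and AA465934 (0.803). In the 12 libraries of d14+3 their correlations with Bc1 were, in the same order, 0.793, 0.728, 0.150, -0.54 and 0.590. For Lars2 the nearest of these other genes were Ccdc62 (0.912), Rn7sk (0.907), the pseudogene Gm16378 (0.884), Gm23935 (0.881), a 57-base gene annotated as a miRNA, and Zfp865 (0.853). Their d14+3 values were 0.046, 0.832, 0.724, 0.929 and 0.531. CT010467.1 had Gm16378 (0.931), Gm23935 (0.918), Rn7sk (0.908) and Ccdc62 (0.900) among its 5 nearest of these other genes, and all 4 were also among the 5 of Lars2. These highest values were picked from 14169 and carry no p-value.

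Cohort, extraction round and RIN were also compared within the d14 libraries, cohort and round together and RIN apart, with diet in each model. Bc1 was lower in September than in July mice by a log2 change of -0.66 (SE 0.205, unadjusted p = 0.00873, adjusted p = 0.819 in edgeR), and Lars2 by -0.40 (SE 0.0972, unadjusted p = 0.00113, adjusted p = 0.819). CT010467.1 differed by -0.70 (unadjusted p = 9.17e-05, adjusted p = 0.487) and Gm26917 by -0.76 (unadjusted p = 4.45e-05, adjusted p = 0.487), so all 4 were lower in September without passing the threshold. In Control d14 the RIN was 9.6 to 10 in July and 8 to 8.6 in September mice. Cohort and RIN cannot be told apart in those controls. In ExpOF d14 the RIN was 9.6 to 9.8 in July and 9.7 to 10 in September mice. No gene passed it, 0% of 18315, and 990 (5.41%) had an unadjusted p-value under 0.05. With the left-out September library included, the cohort change of Bc1 was 0.47 and that of Lars2 0.04.

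Between extraction rounds, Lars2 was higher in round 2 by 0.34 (SE 0.0965, unadjusted p = 0.00348, adjusted p = 0.555) and CT010467.1 by 0.67 (SE 0.123, adjusted p = 0.555), while Bc1 differed by 0.09 (SE 0.202, adjusted p = 0.884). This was the reverse of the controls of d14+3, where round 2 was low. No gene passed here either, 0% of 18315, with 1510 (8.24%) at an unadjusted p-value under 0.05. Per unit of RIN, Bc1 changed by 0.31 (SE 0.237, adjusted p = 1.00) and Lars2 by 0.17 (SE 0.137, adjusted p = 1.00), and 3 of 18315 genes (0.0164%) passed, Lbp, Pcolce and Wdr86, all lower at higher RIN and named only because they were the genes called. With the left-out library included, the RIN coefficient was 1.59 for Bc1 and 0.70 for Lars2, and the round difference 1.11 and 0.79. DESeq2 was not run for these 3 coefficients. RIN was 9.2 ± 0.860 in Control d14 (SD, n = 5), 9.75 ± 0.138 in ExpOF d14 (SD, n = 6), 8.62 ± 1.09 in Control d14+3 (SD, n = 6) and 9.43 ± 0.450 in ExpOF d14+3 (SD, n = 6).

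Features known to carry ribosomal RNA reads differed in direction on d14. Of 6 such features in the table, Rn5s was at 0 and 5 were tested. On d14, 3 had a negative and 2 a positive log2 fold change (median -0.44, against -0.02 over all genes), and 0 passed in edgeR, also at an unadjusted p-value under 0.05. The positive values were those of mt-Rnr1 (0.07) and mt-Rnr2 (0.13). On d14+3 all 5 were negative, as were 9097 of the 18992 genes tested. The values ran from -0.17 (SE 0.120) for mt-Rnr2 and -0.23 (SE 0.109) for mt-Rnr1 to -1.62 (SE 0.388) for Gm15564. These signs are a description, since features of this kind were chosen for being lower in that contrast. Gm15564 was at 0.842 to 2.09 CPM in ExpOF and 2.33 to 7.26 CPM in control mice. Gm15564 was annotated as antisense, and counts from overlapping genes could enter its value.

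Of 21 small structured noncoding RNAs in the table, most of them made by RNA polymerase III or processed from introns and without a poly(A) tail, 5 were at 0 and only Rn7sk, Rny1 and Scarna13 were tested. On d14 their log2 fold changes were -0.72 (SE 0.400, adjusted p = 0.240), -1.07 (SE 0.682, adjusted p = 0.299) and -0.09, so 0 of 3 passed. Rn7sk was at 2.75 to 8.30 CPM in Control d14 and 1.48 to 6.09 CPM in ExpOF d14, and on d14+3 at 1.34 to 7.01 and 1.05 to 3.05 CPM. Its d14+3 log2 fold change was -1.06 (SE 0.391), beside the -1.27 of Bc1. Rny1, a Y RNA that binds the Ro protein, was at -1.57 with a mean of under 0.5 CPM in every group.

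The 33 genes of the RNA polymerase III machinery, which transcribes Bc1, lay on both sides of 0. On d14, 8 were lower and 7 higher at an unadjusted p-value under 0.05, where 13.6% of all genes were lower and 13.1% higher, and 0 passed after adjustment (median -0.04). Crcp, a polymerase subunit, differed by -0.37 (unadjusted p = 0.000226, adjusted p = 0.135) and Polr3k, another subunit, by 0.29 (unadjusted p = 0.00268, adjusted p = 0.135). On d14+3 their median was -0.02, and Crcp was at -0.10 and Polr3k at -0.02.

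Among 19 tested proteins that bind Bc1 or carry RNA into dendrites, 1 was lower and 4 were higher on d14 at an unadjusted p-value under 0.05 (13.6% and 13.1% of all genes), and 0 passed after adjustment (median 0.08). Fmr1, the translational repressor FMRP, was at 31.5 ± 4.57 CPM (SD, n = 5) in Control d14 and 43.2 ± 4.21 CPM (SD, n = 6) in ExpOF d14 (log2 fold change 0.46, unadjusted p = 0.00692, adjusted p = 0.135), and at 0.15 on d14+3. Purb, a single-strand binding protein of the Pur family, differed by 0.26 (unadjusted p = 0.0238, adjusted p = 0.148). Of 15 dendritic mRNAs, 1 was lower and 3 were higher at that level (median 0.03), among them Actb at -0.24 (adjusted p = 0.135) and Kif5a, a kinesin heavy chain, at 0.21 (adjusted p = 0.135). On d14+3 the medians of these lists were 0.04 and -0.06.

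Lars2 lay below nearly all other genes of mitochondrial tRNA charging. The list held the other synthetases and Gatb, Gatc and Qrsl1, subunits of the amidotransferase that finishes the glutamine tRNA after it is charged with glutamate. Of 21 such genes tested, 3 were lower and 3 higher on d14 at an unadjusted p-value under 0.05 (13.6% and 13.1% of all genes) and 0 passed (median -0.06). Mars2, for methionine, differed by 0.45 (adjusted p = 0.135) and Kars, for lysine, by -0.24 (adjusted p = 0.135). On d14+3 all 21 lay between -0.15 (Sars2) and 0.22 (Wars2), above the -0.80 of Lars2, and on d14 20 of 21 were above the -0.27 of Lars2, with Fars2 at -0.30 the exception. The correlation of Lars2 with these 21 genes over the 11 libraries of d14 ran from -0.39 (Mars2) to 0.748 (Gatb), with a median of 0.009, where it was 0.979 with CT010467.1. These comparisons are a description, since Lars2 was chosen for its d14+3 value.

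**Figure D5:**
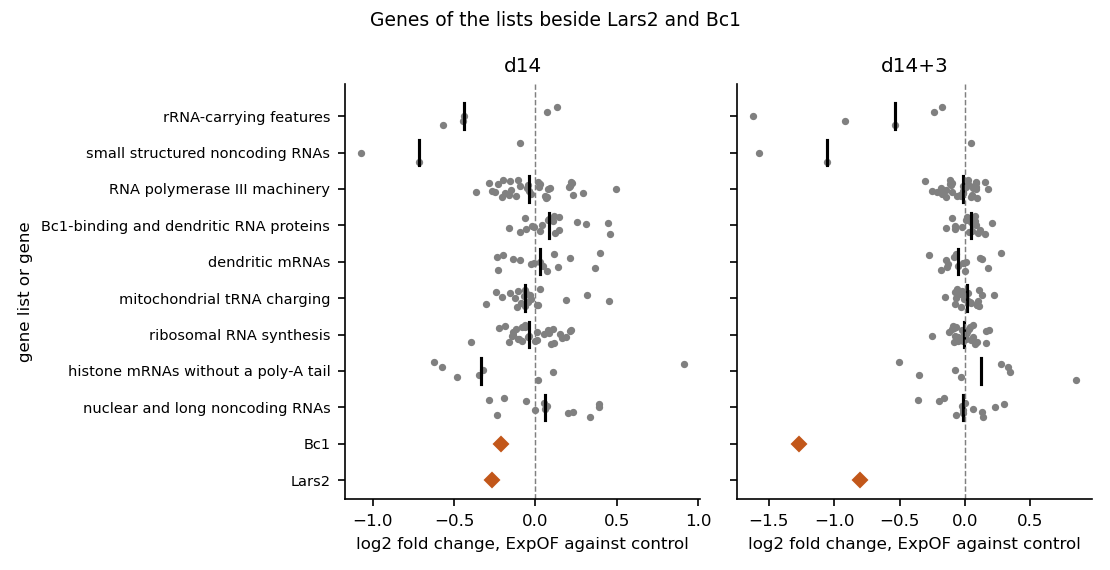
Log2 fold change of ExpOF against control mice on d14 (left) and d14+3 (right) for each tested gene of 9 lists (grey points, median as a black bar) and for Bc1 and Lars2 (orange diamonds), with the dashed line at 0. On d14+3 the 21 genes of mitochondrial tRNA charging lie between -0.15 and 0.22, whereas Lars2 is at -0.80 and Bc1 at -1.27.

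Against the same 13.6% and 13.1% of all genes, 2 of 30 genes of ribosomal RNA synthesis were lower and 3 higher on d14 at an unadjusted p-value under 0.05 (median -0.04), with Utp20 at 0.21 (adjusted p = 0.135) and Nop56 at -0.14 (adjusted p = 0.141), both parts of the machinery that processes the precursor. Of 8 tested histone mRNAs that normally lack a poly(A) tail, 3 were lower and 0 higher at that level, beside the same shares of all genes (median -0.33), with Hist1h1c at -0.48 (adjusted p = 0.135) and Hist3h2ba at -0.62 (adjusted p = 0.139). Their d14+3 median was 0.12. Of 13 nuclear and long noncoding RNAs, 2 were lower and 3 higher at that level (median 0.06), with Neat1, the paraspeckle RNA, at -0.23 and Rian at 0.23 (adjusted p = 0.135 each). None of the genes in these lists passed the adjusted threshold in edgeR on d14.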

How the data were processed

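Hypothalamic RNA of 24 mice was sequenced from poly-A selected, stranded libraries as 51-base paired ends. The authors aligned the reads with STAR to mm10 and counted them per gene with featureCounts 1.6.4. The authors deposited these as raw, whole-number counts, not normalized. Whether reads were counted by strand is not given in the sources used here. Gene symbols, positions and transcript sequences came from GENCODE vM21, which gave a symbol to 55144 of 55471 genes. The members and the gene lists were chosen with earlier results of these data known, and so were the tests. The replicates are separate mice.

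Library totals were 8928182 to 34848437 counts. The tests used edgeR 4.0.16 under R 4.3.3, with TMM scaling and the filterByExpr filter (count of at least 10, total of at least 15). One robust quasi-likelihood model held all 4 groups over 23 libraries, with Benjamini-Hochberg adjustment over 18992 genes and a threshold of 0.05. Of the 4 members, 2 passed the filter. Log2 CPM used a prior count of 2. Control d14 replicate 4 was the library left out, as found by comparing group means with those the study gave, and its CPM came from a scaling of all 24 libraries. Cohort, round and RIN, all from the labels, were fitted on the 11 d14 libraries. Correlations were tested with 100000 permutations, or with all permutations for fewer than 10 libraries. The 6 pairs planned among the members were run over Bc1, Lars2, CT010467.1 and Gm26917, since 2 members held no counts. Genes named are the members, the 2 genes of each list with the smallest d14 p-value, and the 5 genes, other than these features, most correlated with each member on d14. Others were named after their values were seen.

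Alternatives were DESeq2 1.42.0, its size factors, upper quartile and total scaling, TMM without the members, CT010467.1 and Gm26917, 2 other filters, all 24 libraries, the 2 groups alone, each cohort alone, covariates, a replicate block and each library left out. The July correlations, those without the 2 farthest libraries, those on d14+3 and those with Gm15564 and the mitochondrial ribosomal RNAs were added after the data were seen. The scripts were tested on simulated data. The same-numbered mice were checked for pairing. Sequences were read with Python 3.11.15.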

Additional observations from a re-analysis of the deposited data

Results flagged for a closer look

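Chance marks about 1 in 20 groups by the rule used for single libraries far from their group. Bc1 in Control d14 replicate 6 was at 199 CPM, with the next library at 123 CPM, and CT010467.1 in the same library was at 1567 CPM, with the next at 839 CPM. Lars2 was also highest there in its group (398 CPM) without reaching the limit for that rule. Bc1 in ExpOF d14+3 replicate 6 was at 24.6 CPM, with the next library at 55.3 CPM. In Control d14 replicate 4, the library the study left out, Bc1 was at 2108 CPM, Lars2 at 1460 CPM, CT010467.1 at 5775 CPM and Gm26917 at 183 CPM, each above every other library.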

How the results depend on the processing

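The d14 log2 fold change of Lars2 was negative and short of the threshold in all 25 alternatives, and that of Bc1 in 24 of 25. With 1 library left out it ran from -0.32 to 0.029 for Bc1 and from -0.39 to -0.15 for Lars2, and the value of 0.029 came without Control d14 replicate 6. Genes called on d14 numbered 1 in edgeR, 178 in DESeq2, 2 with the 2 groups alone, 0 in July alone (3495 at an unadjusted p-value under 0.05) and 0 in September alone (858), and from 1 to 4220 with 1 library left out, 4220 without Control d14 replicate 1 and 3 without replicate 3. Neither Bc1 nor Lars2 was called in any of these d14 fits. On d14+3, 0 genes were called in edgeR, 40 in DESeq2 and 26 with RIN as a covariate. These counts are over all genes, and calls of Bc1 and Lars2 are not given for d14+3, the contrast that chose them. The d14+3 log2 fold change ran from -1.42 to -1.06 for Bc1 and from -0.88 to -0.65 for Lars2 with 1 library left out. With all 12 libraries of d14, the September minus July change turned to 0.47 for Bc1 (adjusted p = 1.00) and 0.035 for Lars2 (adjusted p = 1.00). With 1 library left out, that change ran from -0.85 to -0.48 for Bc1 and from -0.45 to -0.33 for Lars2, the round change from -0.12 to 0.26 for Bc1 (-0.12 without Control d14 replicate 6 and -0.0057 without replicate 2) and from 0.28 to 0.42 for Lars2, and the RIN coefficient from 0.046 to 0.433 for Bc1 and from 0.043 to 0.446 for Lars2. The correlation of Bc1 and Lars2 lost its call by Spearman (0.545), in July alone (0.735) and without the 2 farthest libraries (0.318). The causes were not tested.

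Replicate numbers did not pair the mice, since the correlation of deviations from the group means between same-numbered mice ran from -0.537 to 0.458 on d14 and from -0.632 to 0.546 on d14+3. With a replicate block the d14 log2 fold change was -0.27 for Bc1 and -0.25 for Lars2, that of d14+3 was -1.23 and -0.78, and 1 gene was called on d14.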
